A study of Mus musculus with 2 samples.

Results

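The liver neutrophils described here were 1671 cells of 15384 cells given to a mouse, or 10.9%, in a single-cell RNA-seq data set of sorted mouse liver innate immune cells. A cell was taken as a mature neutrophil when at most 25% of its counts came from mitochondrial genes, it had a count for *S100a9*, and it had counts for at least 3 of 7 genes of mature neutrophils, namely *Cxcr2*, *Il1r2*, *Asprv1*, *Stfa2l1*, *Mrgpra2b*, *Hdc* and *Il1f9*. The cells were thus chosen by their measured counts for these genes, and the levels of the 8 genes are given as a description. The study asked how deletion of *Egr2*, which encodes a zinc finger transcription factor, in myeloid cells alters innate immune cells of the liver in a diet model of metabolic dysfunction-associated steatohepatitis. The 4 groups were an ND-fed Egr2fl/fl mouse, an ND-fed Lyz2Cre/+.Egr2fl/fl mouse, a CDA-HFD-fed Egr2fl/fl mouse and a CDA-HFD-fed Lyz2Cre/+.Egr2fl/fl mouse, with 1 mouse in each group. ND is normal diet, and CDA-HFD is a high-fat diet deficient in choline and with defined amino acids, fed for 7 weeks. All 4 mice carried both floxed *Egr2* alleles, and per the study's methods mice put on CDA-HFD were males aged 6 to 12 weeks. In the Lyz2Cre/+.Egr2fl/fl mice Cre is made from the *Lyz2* locus, which is active in neutrophils, monocytes and macrophages alike, so the deletion is not specific to neutrophils. The sort took CD45.2+ CD11b+ cells negative for CD90.2, B220, NK1.1 and SiglecF, a gate that neither selects nor removes Ly6G+ cells. The 4 samples were marked with hashtags, pooled, and read on 1 capture lane.

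Neutrophils are short-lived granulocytes that are made in the bone marrow, where they fill their azurophil, specific and gelatinase granules in turn before release. Mature cells leave the marrow with most granule transcripts already lost, carry the chemokine receptor Cxcr2, and lose it in tissue as Cxcr4 goes up. Neutrophils that meet microbial products, dying cells or cytokines switch on genes driven by NF-kappaB and AP-1, among them chemokines that call in more neutrophils and monocytes. In steatohepatitis neutrophils enter the liver lobule, and they are a source of IL-1beta, reactive oxygen and proteases there.

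No replicate check could be made with a single mouse in a group, so no test between groups was run and no p-value is given. Each interval is a 95% interval that covers counting error only, and it does not cover the spread between mice. Intervals of CPM and of CPM ratios treat every count as independent, so they also leave out the spread between the cells of a mouse. Levels are CPM, the counts summed over the neutrophils of a mouse and scaled to a total of 1e+06. Per-mouse values stand in the order ND-fed Egr2fl/fl, ND-fed Lyz2Cre/+.Egr2fl/fl, CDA-HFD-fed Egr2fl/fl and CDA-HFD-fed Lyz2Cre/+.Egr2fl/fl. The summed neutrophil counts were 576251, 843184, 4087198 and 3663736, so the ND-fed mice set the precision of every diet ratio. The median neutrophil had 4175 counts and 976 detected genes, against 14539 counts and 2492 genes in the other cells. No cell barcode was shared between mice. The own hashtag held a median of 84.3%, 84.6%, 87.9% and 87.9% of the hashtag counts of neutrophils, against 93.4% to 94.6% in the other cells. The median neutrophil had 445, 528.5, 419 and 441 hashtag counts, against 1061, 1093, 817.5 and 974.5 in the other cells. Neutrophils were thus assigned to a mouse on weaker hashtag evidence than the other cells.

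*Egr2* itself was near the limit of detection in neutrophils. The neutrophils held 2, 1, 181 and 32 *Egr2* counts, or 3.47, 1.19, 44.3 and 8.73 CPM. The CDA-HFD-fed Egr2fl/fl mouse was the highest. On CDA-HFD the ratio of the Lyz2Cre/+.Egr2fl/fl to the Egr2fl/fl mouse was 0.197 (0.131 to 0.288), or 0.110 without the barcodes described below that also carried macrophage genes, which is on the side the labels give, and on ND the counts were too few for a ratio. After thinning every cell to 3000 counts, 8.24% of the neutrophils of the CDA-HFD-fed Egr2fl/fl mouse and 1.10% of those of the CDA-HFD-fed Lyz2Cre/+.Egr2fl/fl mouse had an *Egr2* count. In T and NK lymphocytes, which *Lyz2*-driven Cre should spare, 5.04% of 139 cells of all mice had one at their full depth, a median of 9048 counts, and 0.719% at 3000 counts. Which exons are floxed was not given in the sources used here, so it is unknown whether these 3' reads fall within the deleted part.

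The cells chosen carried further neutrophil genes that the rule did not use. *S100a8*, the calprotectin partner of S100a9, stood at 33010 CPM in neutrophils, 86.7 times its level in all other cells. *Retnlg*, *G0s2* and *Csf3r*, the G-CSF receptor gene, stood 115, 83.9 and 26.6 times higher than in the other cells. After thinning to 3000 counts *Csf3r* had a count in 94.3% of neutrophils, in 19.1% of 3647 Ly6Chi monocytes and in 4.32% of the lymphocytes, and at full depth in 97.4%, 43.8% and 10.8%. Of the 15 genes with the highest ratio to other cells, *Stfa2l1*, *Mrgpra2b*, *S100a9*, *Asprv1*, *Hdc*, *Cxcr2* and *Il1f9* are genes of the rule and rank high through it, and the others were *Retnlg*, *Cstdc4*, *Stfa2*, *S100a8*, *G0s2*, *Lrg1*, *Mrgpra2a* and *Mirt2*. *Ly6g*, which encodes the antigen by which mouse neutrophils are usually sorted, was poorly captured, with a count in 7.54% of neutrophils at 3000 counts per cell, 8.26% at full depth, and 88.4 CPM. The azurophil granule genes *Mpo* and *Elane*, which mark promyelocytes, were at 0 in all 4 mice. Reads of near-identical copies (*Stfa2* and *Stfa2l1*, *Mrgpra2a* and *Mrgpra2b*, *Bcl2a1a*, *Bcl2a1b* and *Bcl2a1d*) may be split or pooled by the mapping, so values of single copies are uncertain, and *Stfa2* and *Mrgpra2a* may carry reads of genes of the rule.

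Part of the neutrophil barcodes also carried macrophage or dendritic cell transcripts. Barcodes with counts for at least 2 of *C1qa*, *C1qb*, *Cd74*, *H2-Aa*, *H2-Ab1* and *Csf1r*, called mixed cells below, numbered 15, 22, 87 and 83, or 15.6%, 13.8%, 11.2% and 13.01% of the neutrophils. Since they were larger than the rest, they held 44.2%, 28.9%, 23.8% and 28.2% of all neutrophil counts, the largest part in the ND-fed Egr2fl/fl mouse. The 10 genes of the macrophage list summed to 18764, 10524, 3525 and 6303 CPM, and to 874, 876, 1145 and 1517 CPM without the mixed cells. The 8 Kupffer cell genes summed to 6138, 3180, 273 and 200 CPM with these cells and to 386, 334, 266 and 239 CPM without them. The 10 dendritic cell genes summed to 11877, 3344, 6507 and 6825 CPM with them and to 99.5, 115, 208 and 242 CPM without. The 12 T and NK lymphocyte genes summed to 1026, 315, 80.5 and 73.1 CPM with them and to 21.8, 440, 83.8 and 84.7 CPM without, so that the order of the ND-fed mice turned. With the mixed cells B cell genes summed to 17.4 to 108 CPM, hepatocyte genes to 154 to 373 CPM with *Alb* at 0 in all 4 mice, and eosinophil genes to at most 42.9 CPM. The globin genes *Hbb-bs*, *Hba-a1* and *Hba-a2* were at 0 in all 4 mice. The part of these other cell types in the results was not tested, beyond the values without the mixed cells. Where leaving out the mixed cells moved a ratio printed here by more than 1.5 times or ended its call, the value without them stands beside it. Barcodes that the authors had named doublets of 2 hashtags were left out, and doublets within a mouse were not removed.

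Cells just inside and just outside the rule differed by degree. Of the cells with a *S100a9* count, 213 had counts for 2 of the 7 genes and were left out, and 477 had counts for 3 and were kept. The cells with 2 had a median of 135 *S100a9* counts and *Csf3r* in 88.7%, and those with 3 had 167 *S100a9* counts and *Csf3r* in 97.1%, both shares at full depth. A further 188 cells had at least 3 of the 7 genes and no *S100a9* count. *S100a9* is among 22 genes whose low values are absent from the table, its lowest value above 0 being 22 counts, so a 0 for it can stand for a low value.

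**Figure D1:**
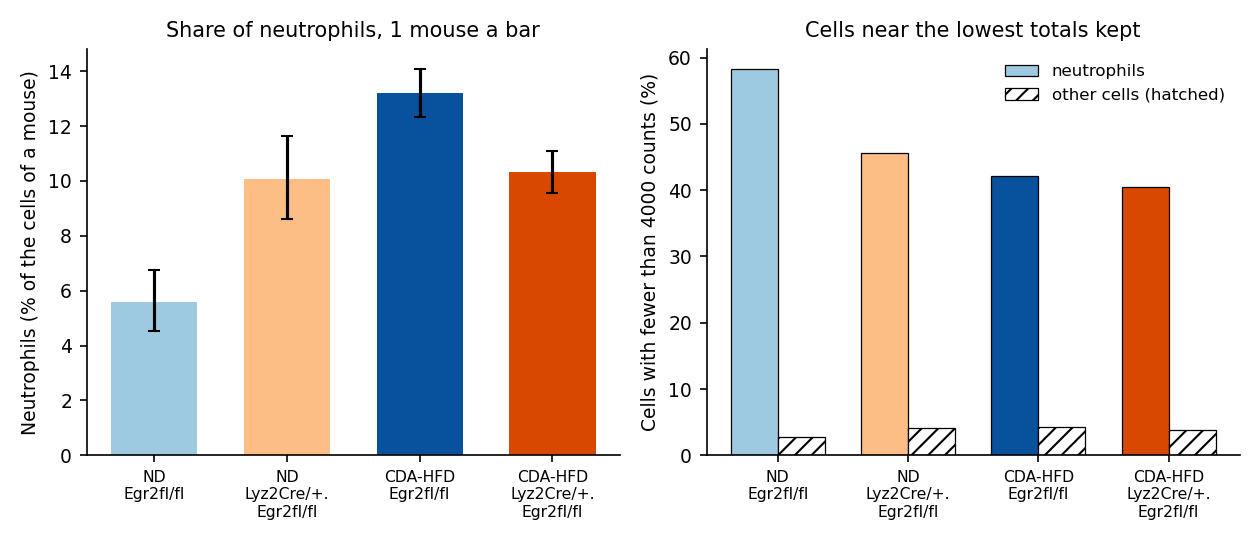
Left, neutrophils as a percentage of the cells of each mouse (bars, 1 mouse each) with 95% exact binomial intervals that cover counting error only; right, the percentage of neutrophils (filled bars) and of all other cells (hatched bars) with fewer than 4000 counts. The share was lowest in the ND-fed Egr2fl/fl mouse at 5.57% and highest in the CDA-HFD-fed Egr2fl/fl mouse at 13.2%, and 40.4% to 58.3% of neutrophils lay below 4000 counts.

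Neutrophils made up 5.57% (4.54 to 6.76; 96 of 1723), 10.1% (8.63 to 11.6; 160 of 1590), 13.2% (12.3 to 14.1; 777 of 5885) and 10.3% (9.57 to 11.1; 638 of 6186) of the cells. The ND-fed Egr2fl/fl mouse was the lowest, and the ND-fed and CDA-HFD-fed Lyz2Cre/+.Egr2fl/fl mice lay side by side. In the Egr2fl/fl mice the share was 7.63 percentage points higher on CDA-HFD (6.17 to 8.998), and in the Lyz2Cre/+.Egr2fl/fl mice the difference was 0.251 points (-1.50 to 1.89). These shares are of a pool into which 3000 cells of each ND-fed and 9000 of each CDA-HFD-fed sample were loaded. The lowest total of any cell in the table was 3115 counts, and 58.3%, 45.6%, 42.1% and 40.4% of the neutrophils had fewer than 4000 counts, against 2.83% to 4.23% of the other cells. Neutrophils thus lay next to the lower limit on totals that had been applied to barcodes, and that limit can set the shares. Among cells with at least 4000 counts the difference in the Egr2fl/fl mice was 5.96 points.

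The 2 diet comparisons share no mouse, so that they can be set against each other. A gene was called when its CPM ratio was at least 2 or at most 0.5, among genes with an expected count of at least 20 in both mice and a count in at least 10% of the neutrophils of either. A gene could thus enter through the mouse in which it was high. *Maff* did so, with a count in 3.13% and 3.75% of ND-fed and 28.3% and 17.6% of CDA-HFD-fed neutrophils at full depth. The counts of calls and the list medians carry this selection. In the Egr2fl/fl mice 236 of 3111 tested genes were called higher on CDA-HFD (7.59%) and 221 lower (7.1%). In the Lyz2Cre/+.Egr2fl/fl mice 189 of 3365 were called higher (5.62%) and 148 lower (4.4%). Of 2908 genes tested in both, 106 were called higher in both (3.65%) and 29 lower in both (0.997%). Counts of called genes in the lists below are to be read beside these shares. Of the genes called higher in the Egr2fl/fl mice and tested in both, 47.5% were also higher in the Lyz2Cre/+.Egr2fl/fl mice, and of those higher in the latter 62.7% were also higher in the former. For genes called lower the shares were 19.0% and 34.5%. Without the mixed cells 98 of the 106 higher genes and 13 of the 29 lower genes were still past the fold in both. The median log2 ratio over all tested genes was -0.12 and -0.11. With edgeR TMM factors the medians were 0.20 and 0.11, and the splits of higher to lower calls moved to 422 and 105, to 286 and 68, and for both comparisons to 162 and 11. With the own hashtag at 90% or more of hashtag counts, which leaves fewer cells, they were 86 and 86, 146 and 190, and 45 and 17.

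**Figure D2:**
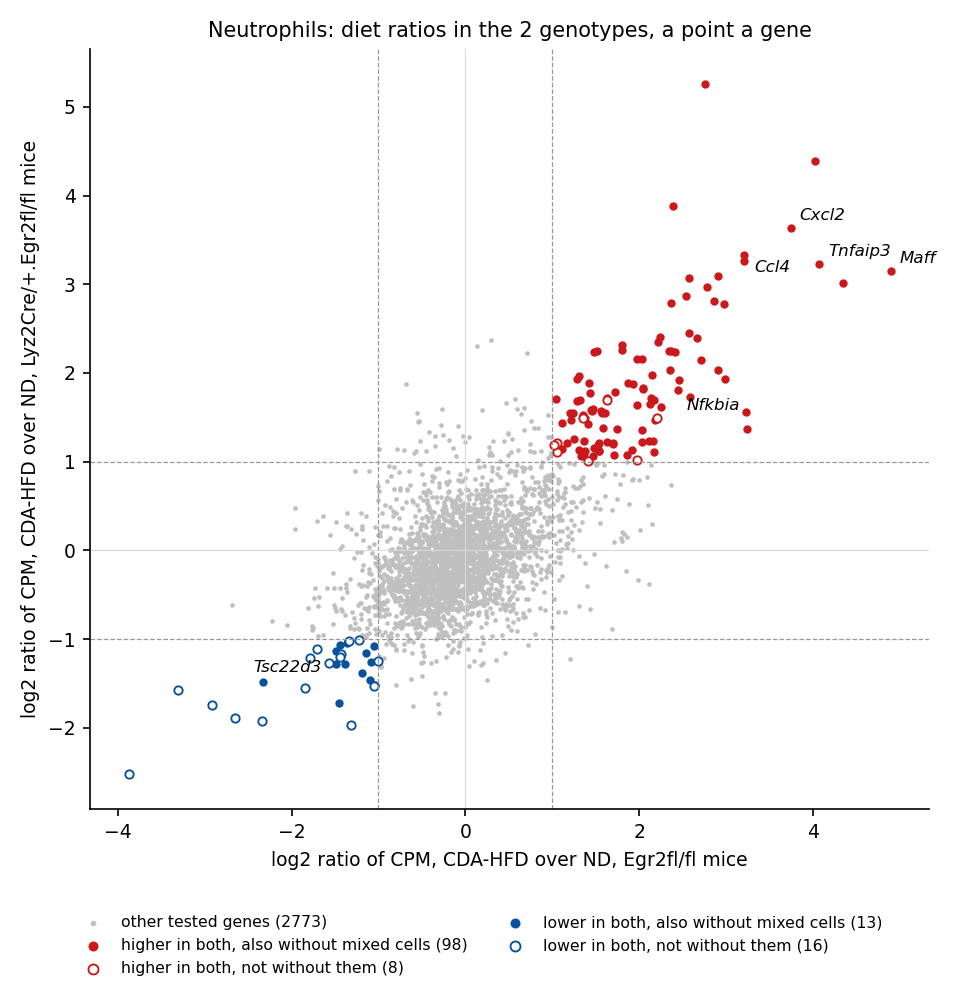
Each point is 1 of 2908 genes tested in both diet comparisons, with the log2 CPM ratio of CDA-HFD to ND in the Egr2fl/fl mice on the x axis and in the Lyz2Cre/+.Egr2fl/fl mice on the y axis; dashed lines mark 2-fold. The 106 genes higher in both (red) run out to *Cxcl2*, *Tnfaip3* and *Maff*, and filled points, 98 of the red and 13 of the blue, were past the fold also without the mixed cells.

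Chemokine and cytokine genes had high diet ratios in both genotypes, with a median log2 ratio of 1.46 and 1.49 over the list. Of 10 listed genes tested in both comparisons, 5 were called higher in both, *Cxcl2*, *Ccl3*, *Ccl4*, *Tnf* and *Csf1*, and 1, *Tnfsf14*, was lower, a call that ends in both with TMM factors. *Cxcl2*, which encodes a ligand of Cxcr2 that attracts neutrophils, stood at 790, 538, 10639 and 6667 CPM. Both CDA-HFD-fed mice were far above both ND-fed mice, by 13.5 times (12.3 to 14.8) in the Egr2fl/fl and 12.4 times (11.3 to 13.6) in the Lyz2Cre/+.Egr2fl/fl mice. Without the mixed cells the ratios were 23.8 and 12.4. At 3000 counts per cell, 15.6%, 10.6%, 80.1% and 65.4% of the neutrophils had a *Cxcl2* count, and the median cell had 0, 0, 24 and 10. In lymphocytes, a type that should lack it, 2.16% had a count at the same depth. Low values of *Cxcl2*, below 6 counts, are absent from the table, so the lower shares are lower limits. If every neutrophil without a *Cxcl2* count held up to 5 that are absent, the ratios would lie between 7.26 and 13.7 in the Egr2fl/fl and between 4.81 and 12.9 in the Lyz2Cre/+.Egr2fl/fl mice, past the fold throughout.

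The CC chemokine genes *Ccl3* and *Ccl4* moved in the same direction. *Ccl4* stood at 382, 253, 3524 and 2539 CPM, with ratios of 9.23 (8.08 to 10.6) and 10.1 (8.77 to 11.6). *Ccl3* stood at 630, 428, 2976 and 2277 CPM, with ratios of 4.72 (4.26 to 5.26) and 5.32 (4.79 to 5.92). Both encode chemokines that attract monocytes. For both the groups by diet did not overlap, which largely follows from their call in both comparisons. Their signal was spread unevenly over cells. At 3000 counts per cell *Ccl4* was found in 28.1%, 20%, 53.0% and 50.9% of the neutrophils, and the 10% of cells with the most in the CDA-HFD-fed mice had at least 43 and 28.3 counts while the median cell had 1. *Csf1*, the macrophage growth factor gene, stood at 153, 178, 842 and 676 CPM, with ratios of 5.52 (4.46 to 6.90) and 3.80 (3.22 to 4.51). *Tnf* stood at 24.3, 85.4, 229 and 221 CPM, with ratios of 9.43 (5.59 to 17.3) and 2.59 (2.03 to 3.34). The ND-fed Egr2fl/fl mouse was the lowest for *Tnf*, on few counts. *Tnfsf14*, which encodes LIGHT, stood at 148, 159, 71.2 and 75.6 CPM, with ratios of 0.483 and 0.476, and of 0.602 and 0.555 with TMM factors, neither past the fold.

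*Ccl6*, a CC chemokine gene that resting neutrophils express strongly, ran the other way, at 4042, 5925, 2321 and 2723 CPM. Its ratio was 0.574 (0.549 to 0.601) in the Egr2fl/fl mice, not past the fold, and 0.460 (0.444 to 0.476) in the Lyz2Cre/+.Egr2fl/fl mice, or 0.537 with TMM factors, which ends its call. *Osm*, which encodes oncostatin M, stood at 262, 106, 420 and 321 CPM and was past the fold in the Lyz2Cre/+.Egr2fl/fl mice at 3.04 (2.45 to 3.82), with 1.6 in the Egr2fl/fl mice. *Cxcl1* and *Cxcl3* were too sparse to be tested, and *Areg* was at 0 in all 4 mice.

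Of 8 IL-1 family genes tested in both, genes of the rule left out, 3 were higher in both, *Il1b*, *Il1rn* and *Nlrp3*. *Il1b* was already high on ND, at 8911, 6978, 18515 and 16209 CPM. It was found in 96.2% to 100% of the neutrophils of every mouse at 3000 counts per cell, and the median cell had 29, 19, 58 and 57 counts, so that its increase lay in level rather than in the share of cells. The ratios were 2.08 (2.02 to 2.14) and 2.32 (2.26 to 2.39), and without the mixed cells 1.89, which ends the call, and 2.34. *Il1rn*, the IL-1 receptor antagonist gene, stood at 316, 292, 916 and 636 CPM, with ratios of 2.90 (2.50 to 3.39) and 2.18 (1.91 to 2.50). *Nlrp3*, the inflammasome sensor gene, stood at 180, 115, 374 and 249 CPM, with ratios of 2.07 and 2.16, and without the mixed cells the second was 1.895, which ends its call. *Il1r2*, the decoy receptor gene, was used by the rule and is given as a description, at 274, 364, 1229 and 859 CPM.

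Genes of pattern recognition and NF-kappaB signalling rose past the fold in 8 of 21 listed genes tested in both, and none was lower in both. The 8 were *Nfkbia*, *Nfkbiz*, *Tnfaip3*, *Relb*, *Tlr2*, *Cd14*, *Clec4e* and *Clec4n*. The list's median log2 ratio was 0.95 in the Egr2fl/fl and 0.93 in the Lyz2Cre/+.Egr2fl/fl mice. *Nfkbia*, which encodes the inhibitor IkappaBalpha and is itself an NF-kappaB target, stood at 666, 710, 3630 and 2498 CPM, with ratios of 5.45 (4.92 to 6.04) and 3.52 (3.24 to 3.83). *Tnfaip3*, which encodes the A20 brake on the pathway, stood at 20.8, 23.7, 351 and 222 CPM, with ratios of 16.9 (9.63 to 32.7) and 9.37 (6.02 to 15.4). The low ND values rest on 12 and 20 counts, hence the wide intervals. *Nfkbiz*, which encodes a nuclear coactivator of the pathway, stood at 83.3, 58.1, 655 and 398 CPM, with ratios of 7.86 (5.91 to 10.7), 22.0 without the mixed cells, and 6.85 (5.16 to 9.31).

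The receptor genes of the list that were called higher in both were *Cd14*, *Clec4e*, *Clec4n* and *Tlr2*. *Cd14*, the lipopolysaccharide co-receptor gene, stood at 290, 243, 1723 and 1334 CPM, with ratios of 5.95 (5.10 to 6.97), 9.51 without the mixed cells, and 5.49 (4.77 to 6.34). At 3000 counts per cell 21.9%, 20%, 60.4% and 59.6% of neutrophils had a *Cd14* count. Among lymphocytes, a type that should lack it, 10.8% had a count at the same depth, which is below all 4 shares. *Clec4e*, which encodes the C-type lectin Mincle, stood at 531, 351, 1758 and 1207 CPM, with ratios of 3.31 (2.95 to 3.72) and 3.44 (3.06 to 3.88). *Clec4n*, which encodes Dectin-2, had ratios of 4.44 and 3.94, and 10.4 and 5.57 without the mixed cells. *Tlr2* stood at 116, 46.3, 289 and 180 CPM, with ratios of 2.48 and 3.90.

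**Figure D3:**
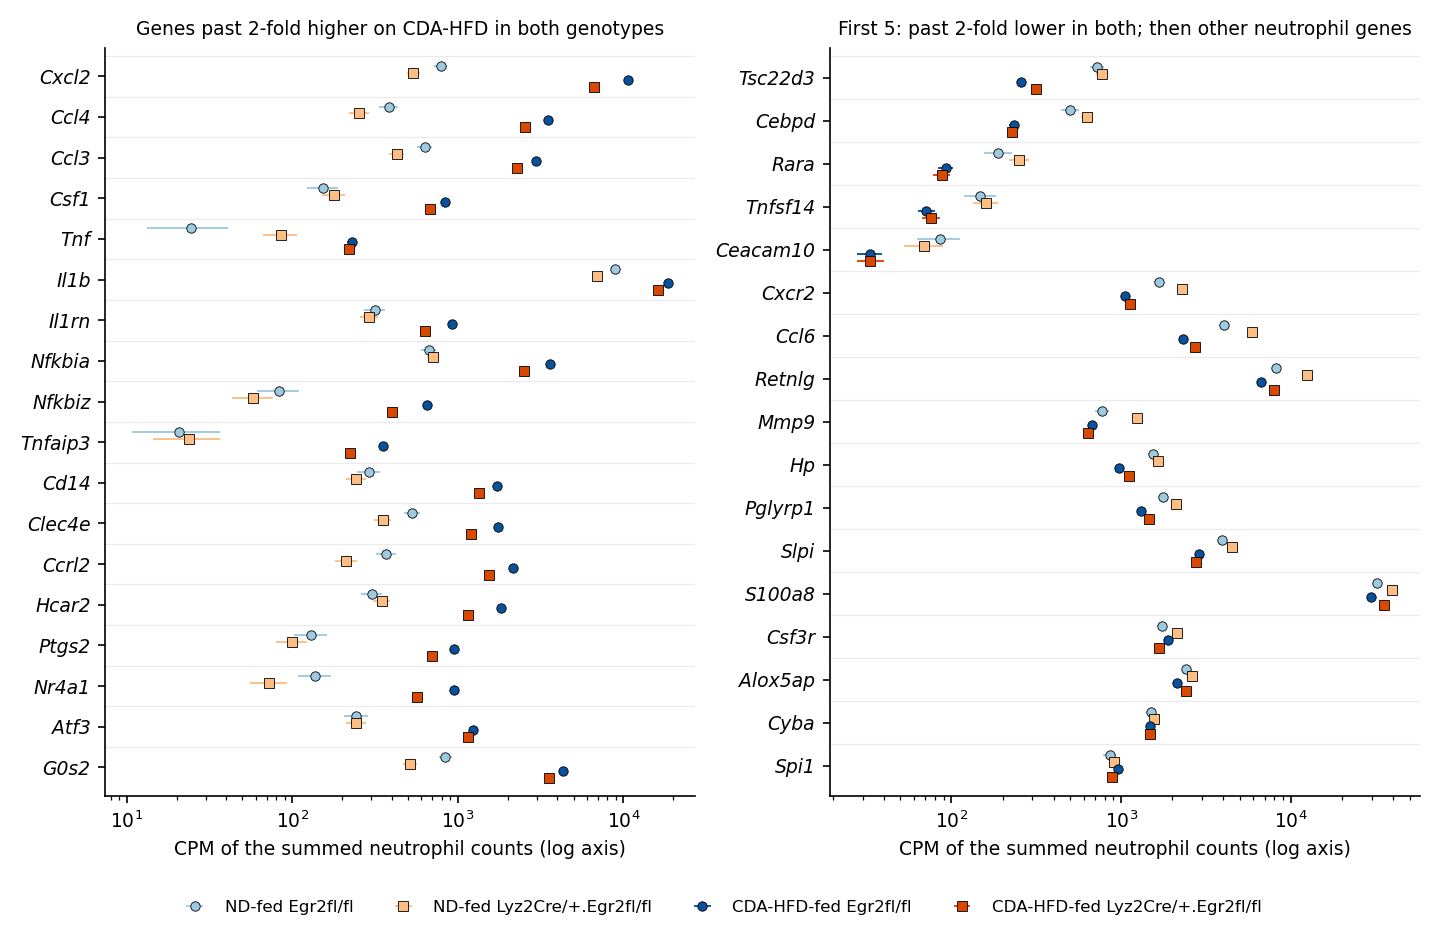
CPM of the summed neutrophil counts on a log axis for single genes, 1 point a mouse (circles, Egr2fl/fl; squares, Lyz2Cre/+.Egr2fl/fl; pale, ND; dark, CDA-HFD), with 95% Poisson intervals that cover counting error only. On the left, for genes picked as past 2-fold higher in both comparisons, both dark points lie right of both pale points. On the right *Tsc22d3*, *Cebpd*, *Rara*, *Tnfsf14* and *Ceacam10*, picked as past 2-fold lower in both, show the reverse order. *Cyba* and *Spi1* lie close together in the 4 mice.

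The windows of 250 bases before the RefSeq start sites (GRCm38.p6) of genes higher in both diet comparisons were searched on both strands for 6 motifs, and 84 of the 106 genes and 21 of the 29 lower genes matched the sequence table by symbol. An NF-kappaB motif of 10 bases was found in 18.2% of 110 windows of the higher genes, in 18.8% of 32 windows of the lower genes, in 9.59% of 2848 windows of all genes tested in both, and in 7.25% of all 32851 windows. The AP-1 motif TGANTCA was found in 11.8%, 9.38%, 5.06% and 6.75% of the same windows. The C/EBP motif TTGCNNAA was found in 5.45%, 3.13%, 8.46% and 9.56%. The Egr motif GCGTGGGCG was found in 3.64%, 3.13%, 0.983% and 0.536%, that is in 4 windows of higher genes. The cyclic AMP response motif TGACGTCA was found in 3.64%, 0%, 2.63% and 1.55%, and the CArG box in 0.909%, 6.25%, 1.09% and 1.47%. A match describes letters in a window and says nothing of binding. The windows of 5 genes higher in both, chosen after their matches were seen to show windows with and without an NF-kappaB match, are printed with matches in capitals, 5′ to 3′ on the gene's strand. In *Cxcl2* (chr5:90903649-90903898, plus strand) 2 overlapping NF-kappaB matches cover bases -97 to -88 and -96 to -87 relative to the start. In *Nfkbia* (chr12:55492648-55492897, minus strand) 1 match covers bases -29 to -20. In *Tnfaip3* (chr10:19015411-19015660, minus strand, 1 of 2 windows) NF-kappaB matches cover bases -125 to -116 and -12 to -3, and an AP-1 match covers -136 to -130. The window of *Nr4a1* (chr15:101266596-101266845, plus strand) held none of the 6 motifs, and that of *Ptgs2* (chr1:150099781-150100030, plus strand) held a C/EBP match at bases -69 to -62 and no NF-kappaB match.
Cxcl2: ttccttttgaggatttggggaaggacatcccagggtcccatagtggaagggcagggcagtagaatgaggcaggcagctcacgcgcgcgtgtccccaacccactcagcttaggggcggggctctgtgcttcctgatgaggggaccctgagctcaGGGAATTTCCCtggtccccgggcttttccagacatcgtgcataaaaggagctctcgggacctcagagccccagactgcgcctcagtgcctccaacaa
Nfkbia: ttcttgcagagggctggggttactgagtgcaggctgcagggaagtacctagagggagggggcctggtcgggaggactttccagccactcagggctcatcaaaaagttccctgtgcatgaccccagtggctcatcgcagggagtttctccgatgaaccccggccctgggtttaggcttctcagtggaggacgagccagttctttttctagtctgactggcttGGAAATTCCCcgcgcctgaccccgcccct
Tnfaip3: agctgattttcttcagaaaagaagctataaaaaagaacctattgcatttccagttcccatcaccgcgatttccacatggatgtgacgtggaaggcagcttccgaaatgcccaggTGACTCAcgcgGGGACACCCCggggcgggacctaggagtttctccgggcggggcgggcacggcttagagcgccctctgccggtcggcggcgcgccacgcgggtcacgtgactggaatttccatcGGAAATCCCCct
Nr4a1: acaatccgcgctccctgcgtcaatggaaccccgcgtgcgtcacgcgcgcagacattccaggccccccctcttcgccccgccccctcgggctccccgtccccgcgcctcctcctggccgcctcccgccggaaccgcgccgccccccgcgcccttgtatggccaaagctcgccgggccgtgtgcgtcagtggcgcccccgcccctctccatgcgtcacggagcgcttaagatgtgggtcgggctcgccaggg
Ptgs2: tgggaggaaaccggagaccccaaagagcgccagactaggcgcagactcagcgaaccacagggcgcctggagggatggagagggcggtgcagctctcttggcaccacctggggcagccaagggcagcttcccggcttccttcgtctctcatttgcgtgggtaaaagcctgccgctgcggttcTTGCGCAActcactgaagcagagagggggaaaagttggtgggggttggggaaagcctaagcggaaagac

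Genes listed for aged or tissue-activated neutrophils were higher in both comparisons in 6 of 13 genes tested, and none was lower in both. The list's median log2 ratio was 1.74 and 0.98. *Ptgs2*, which encodes the inducible cyclooxygenase, stood at 130, 99.6, 946 and 700 CPM, with ratios of 7.27 (5.78 to 9.26) and 7.02 (5.65 to 8.83). Its share of cells at 3000 counts was 17.7%, 14.4%, 65.6% and 61.3%, against 2.16% of lymphocytes at the same depth. *Nr4a1*, an immediate early nuclear receptor gene, stood at 137, 72.3, 946 and 566 CPM, with ratios of 6.90 (5.52 to 8.74), 15.1 without the mixed cells, and 7.82 (6.06 to 10.3). *Ccrl2*, which encodes an atypical chemerin receptor, stood at 368, 211, 2147 and 1540 CPM, with ratios of 5.84 (5.09 to 6.72), 13.9 without the mixed cells, and 7.29 (6.28 to 8.52). Both CDA-HFD-fed mice were above both ND-fed mice for each of these genes, an order that largely follows from their call in both comparisons.

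*Hcar2*, the receptor gene for ketone bodies and niacin, stood at 302, 347, 1818 and 1154 CPM, with ratios of 6.02 (5.18 to 7.04) and 3.32 (2.95 to 3.75). *Atf3*, a stress-induced transcription factor gene, stood at 243, 243, 1231 and 1153 CPM, with ratios of 5.07 (4.28 to 6.04) and 4.74 (4.12 to 5.49). *Cxcr4*, the receptor gene linked to ageing and return to the marrow, stood at 366, 429, 838 and 849 CPM. Its ratios of 2.29 (1.99 to 2.64) and 1.98 (1.77 to 2.21) lay at the fold, and without the mixed cells they were 1.89 and 1.88. *Cxcr2*, which was part of the rule, stood at 1661, 2276, 1054 and 1121 CPM. Both CDA-HFD-fed mice were higher for *Cxcr4* than both ND-fed mice.

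Among 19 tested genes of neutrophil identity, *G0s2* and *Trem1* were higher in both, and none was lower in both. *Mrgpra2a* also passed the fold, at 2.55 and 2.89, but it may share reads with its near-identical copy *Mrgpra2b*, whose counts chose the cells and which stood at 3.09 and 2.34, so its ratios are a description only. *G0s2*, which encodes an inhibitor of the triglyceride lipase Pnpla2, stood at 838, 515, 4328 and 3559 CPM, with ratios of 5.16 (4.72 to 5.66) and 6.91 (6.28 to 7.63). *Trem1*, which encodes an activating receptor that amplifies Toll-like receptor signals, stood at 340, 276, 1008 and 820 CPM, with ratios of 2.96 (2.57 to 3.44) and 2.97 (2.60 to 3.41). Of other genes of the mature cell, *S100a8*, *Csf3r* and *Retnlg* stayed within the fold in both comparisons, and the direction of *S100a8*, and in the Egr2fl/fl mice that of *Retnlg*, turned with the scaling. *S100a8* stood at 32258, 39479, 29813 and 35205 CPM, with ratios of 0.924 and 0.892. *Csf3r* stood at 1734, 2128, 1890 and 1676 CPM, with ratios of 1.09 and 0.788. *Retnlg*, which encodes a resistin-like secreted protein, stood at 8201, 12476, 6675 and 7980 CPM, and its share of cells at 3000 counts was 84.4% in both ND-fed mice against 64.2% and 63.5% in the CDA-HFD-fed mice. Its ratios were 0.814 (0.789 to 0.840) and 0.640 (0.625 to 0.654), and low values of *Retnlg* are absent from the table. With TMM factors the ratios of *S100a8* were 1.15 and 1.04, those of *Csf3r* 1.36 and 0.9199, and those of *Retnlg* 1.02 and 0.747.

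Specific granule genes gave no common direction by diet, with a median log2 ratio of -0.38 in the Egr2fl/fl and 0.06 in the Lyz2Cre/+.Egr2fl/fl mice. In the latter 2 of 11 tested genes were called higher and 1 lower. Of 9 specific granule genes tested in both, none was higher in both and 1, *Ceacam10*, was lower, at 85.0, 68.8, 33.0 and 33.3 CPM with ratios of 0.388, or 0.236 without the mixed cells, and 0.484. *Mmp9*, the gelatinase gene, stood at 767, 1242, 669 and 639 CPM, with ratios of 0.872, or 1.09 with TMM factors, and 0.514. Of 8 gelatinase granule genes, *Plaur*, the urokinase receptor gene, was higher in both at 2.52 (2.10 to 3.04) and 2.09 (1.76 to 2.50). *Lcn2*, which encodes the siderophore-binding lipocalin, stood at 861, 786, 1295 and 2372 CPM, and only its ratio of 3.02 (2.79 to 3.27) in the Lyz2Cre/+.Egr2fl/fl mice passed the fold. Of 7 NADPH oxidase genes none passed the fold in both, and *Cyba*, a subunit of the membrane part, stood at 1501, 1568, 1484 and 1469 CPM. *Ncf1*, the p47phox gene, stood at 356, 645, 952.2 and 972 CPM, with ratios of 2.68 (2.33 to 3.10) and 1.51 (1.38 to 1.65). *Lmnb1*, the lamin gene of the nuclear lamina, stood at 351, 283, 1020 and 617 CPM and was the 1 of 5 chromatin release genes past the fold in both, at 2.91 and 2.18.

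Of 23 transcription factor genes tested in both, 5 were higher in both and 2 lower. The largest ratio was that of *Maff*, a small Maf gene, at 5.21, 8.30, 155 and 73.7 CPM, with ratios of 29.8 (10.2 to 145) and 8.88 (4.25 to 22.3) on 3 and 7 ND counts. *Cebpb* stood at 62.5, 51.0, 162 and 144 CPM with ratios of 2.59 and 2.82, and *Bhlhe40* at 45.1, 27.3, 158 and 130 CPM with ratios of 3.50 and 4.78. *Cebpd* ran against *Cebpb*, at 500, 629, 234 and 228 CPM, with ratios of 0.468 (0.410 to 0.536) and 0.363 (0.326 to 0.406). *Rara*, the retinoic acid receptor alpha gene, stood at 189, 250, 92.2 and 87.3 CPM, with ratios of 0.488 (0.393 to 0.609) and 0.349 (0.292 to 0.417). With TMM factors the glucocorticoid target *Tsc22d3* was still lower past the fold in both, at 0.446 and 0.482, while in the Egr2fl/fl mice *Cebpd* stood at 0.584, *Rara* at 0.609 and *Gbp2* at 0.502, and in the Lyz2Cre/+.Egr2fl/fl mice *Ceacam10* at 0.565. *Spi1*, which encodes the myeloid factor PU.1, stood at 857, 908, 955 and 879 CPM. *Egr1* and *Egr3*, paralogs of *Egr2*, were both higher in both comparisons. *Egr1* stood at 154, 266, 610 and 537 CPM, with ratios of 3.95 (3.20 to 4.94) and 2.02 (1.76 to 2.33), and without the mixed cells the second was 1.65, which ends its call. *Egr3* stood at 17.4, 3.56, 90.8 and 52.4 CPM, with ratios of 5.23 (2.81 to 10.999), 33.8 without the mixed cells, and 14.7 (4.96 to 72.1) on 10 and 3 ND counts.

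Of 6 clock and glucocorticoid genes tested in both, 3 were called higher in both, *Fkbp5*, *Per1* and *Bhlhe40*, and 1 lower. *Tsc22d3*, which encodes the glucocorticoid-induced leucine zipper GILZ, was lower in both comparisons, at 722, 766, 258 and 316 CPM with ratios of 0.357 (0.319 to 0.401) and 0.413 (0.375 to 0.455). At 3000 counts per cell it was found in 68.8%, 73.1%, 34.4% and 43.6% of the neutrophils. Both CDA-HFD-fed mice were below both ND-fed mice in level and in share, and for the level this order largely follows from the call in both. *Fkbp5* and *Per1*, which glucocorticoids also induce, were higher in both. *Fkbp5* stood at 17.4, 32.0, 52.1 and 83.5 CPM, with ratios of 3.003 (1.601 to 6.35), 4.72 without the mixed cells, and 2.61 (1.76 to 4.02). *Per1* stood at 123, 73.5, 332 and 271 CPM, with ratios of 2.69 (2.12 to 3.47) and 3.69 (2.85 to 4.85). The time of day of each sacrifice was not given in the sources used here.

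Of 18 survival and cell death genes, 3 were higher in both, *Bcl2a1b*, *Bcl2a1d* and *Pim1*. *Pim1*, which encodes a pro-survival kinase, stood at 448, 440, 1974 and 1445 CPM, with ratios of 4.41 (3.90 to 5.01) and 3.28 (2.95 to 3.66). *Bcl2a1b*, an A1 gene that counters apoptosis, stood at 439, 217, 1066 and 828 CPM, with ratios of 2.43 (2.14 to 2.77), 4.20 without the mixed cells, and 3.81 (3.28 to 4.45). *Mcl1* stood at 580, 644, 932 and 742 CPM, with ratios of 1.61 and 1.15. Among 7 chemoattractant receptor genes, *Cxcr2* left out, 2 were higher in both, *Ccrl2* and *Ptafr*. *Ptafr*, the platelet-activating factor receptor gene, stood at 295, 273, 848 and 622 CPM, with ratios of 2.88 and 2.28. Among 13 adhesion genes the tetraspanin gene *Cd9* was, at 534, 584, 1743 and 1342 CPM with ratios of 3.26 (2.91 to 3.67) and 2.30 (2.10 to 2.53).

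Few metabolic genes were called in both comparisons, and 3.65% of all genes tested in both were called higher. Of 21 genes of glycolysis and hypoxia, 2 were higher in both, the lactate exporter gene *Slc16a3*, at 347, 272, 951.02 and 808 CPM with ratios of 2.74 and 2.97, and *Hilpda*, at 22.6, 2.37, 153 and 90.9 CPM. *Hilpda* encodes a lipid droplet protein, and its ratios of 6.78 (3.93 to 12.8), 10.9 without the mixed cells, and 38.3 (10.5 to 318), 17.7 without them, rest on 13 and 2 ND counts. Of 12 lipid genes, the lipid droplet coat gene *Plin2* was higher in both, at 74.6, 68.8, 222 and 201 CPM with ratios of 2.98 (2.19 to 4.14), 4.71 without the mixed cells, and 2.92 (2.23 to 3.88). *Gapdh* stood at 835, 719, 910 and 864 CPM. *Fth1*, the ferritin heavy chain gene, stood at 9031, 7242, 17911 and 15354 CPM, with ratios of 1.98 (1.93 to 2.04) and 2.12 (2.06 to 2.18), on both sides of the fold.

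Interferon response genes gave no common direction. Of 17 tested in both, 1 was higher in both and 1 lower. *Slfn4* stood at 279, 263, 628 and 611 CPM, with ratios of 2.25 (1.92 to 2.65) and 2.32 (2.02 to 2.68). *Gbp2*, an interferon gamma-induced GTPase gene, stood at 179, 120, 71.9 and 30.6 CPM, with ratios of 0.402 (0.320 to 0.509) and 0.255 (0.193 to 0.337), and without the mixed cells the first was 0.880, which ends its call. *Rsad2*, a gene of the type I response, stood at 74.6, 250, 264 and 285 CPM, with ratios of 3.54 and 1.14, the ND-fed Egr2fl/fl mouse alone being low. Of 8 heat shock genes 1, *Hspa1a*, was higher in both, at 50.3, 32.0, 233 and 90.3 CPM, and without the mixed cells its ratios of 4.63 and 2.82 were 1.94 and 1.08.

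Beyond the lists, 4 further genes were among the 10 with the largest ratios in both comparisons. *Rabgef1*, which encodes a regulator of Rab5, stood at 12.1, 4.74, 198 and 99.4 CPM, with ratios of 16.3 (7.86 to 40.6), 37.4 without the mixed cells, and 20.9 (8.11 to 77.3). *Dusp5*, an ERK phosphatase gene, stood at 26.03, 19.0, 240 and 182 CPM, with ratios of 9.21 (5.56 to 16.5), 41.9 without the mixed cells, and 9.61 (5.87 to 16.9). *Thbs1*, which encodes thrombospondin 1, stood at 12.1, 28.5, 247 and 229 CPM, with ratios of 20.3 (9.84 to 50.7) and 8.06 (5.38 to 12.6). *Gla*, the alpha-galactosidase gene, stood at 26.03, 13.05, 195 and 111 CPM, with ratios of 7.51 (4.53 to 13.5), 24.1 without the mixed cells, and 8.54 (4.72 to 17.2). For all of them the ND values rest on 4 to 24 counts.

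In single diet comparisons, the largest ratios outside the genes named so far were those of *Traf1*, a TNF receptor adaptor gene, at 5.21, 27.3, 79.8 and 53.5 CPM with 15.3 (5.20 to 74.7) in the Egr2fl/fl mice, and of *Chil3*, with 28.4 (17.9 to 47.9) in the Lyz2Cre/+.Egr2fl/fl mice. The lowest were those of *AW112010*, *Apoc1*, *Ptgs1*, *Hpgd* and *Serpinb6a* in the Egr2fl/fl mice, at 0.068 to 0.149, and of *Cep19*, *Apoc1*, *Sdc3*, *Ano6* and *Olfr147* in the Lyz2Cre/+.Egr2fl/fl mice, at 0.146 to 0.230. Without the mixed cells *AW112010* was at 0.537, *Apoc1* at 0.615, *Ptgs1* at 0.602, *Hpgd* at 1.01 and *Serpinb6a* at 0.809 in the former, and *Apoc1* at 1.27, *Sdc3* at 1.51 and *Ano6* at 0.384 in the latter. *Cep19* stood at 0.155 and *Olfr147* at 0.175 without them. In the Egr2fl/fl mice *Hpgd* and *Serpinb6a* turned to 10.2 and 1.19 with the own hashtag at 90% or more, and *Apoc1* and *Serpinb6a* to 1.51 and 3.80 after thinning.

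Of the 29 genes called lower in both comparisons, 13 were still past the fold in both without the mixed cells. *Slc40a1*, the iron exporter gene of Kupffer cells, stood at 718, 527, 199 and 180 CPM, with ratios of 0.277 and 0.343, and 0.636 and 0.729 without the mixed cells. *Apoc1*, *Cfp*, *Cd81* and *AW112010* likewise had ratios of 0.068 to 0.197 in the Egr2fl/fl mice, or 0.508 to 1.43 without the mixed cells, and none passed the fold in both without the mixed cells. The summed macrophage list went from 18764 and 10524 CPM on ND to 3525 and 6303 CPM on CDA-HFD, and its part in these ratios was not tested. Besides *Tsc22d3*, *AI467606*, *Elof1* and *Mctp2* were among the genes still lower in both without the mixed cells. In the Egr2fl/fl mice, however, *Elof1* turned to 4.45 among cells whose own hashtag held at least 90% of hashtag counts, and *Mctp2* to 1.34 with at least 4 of the 7 markers required. *AI467606* stood at 194, 168, 38.7 and 60.0 CPM, with ratios of 0.199 (0.155 to 0.256), 0.113 without the mixed cells, and 0.357 (0.287 to 0.443).

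Of the genes whose ratios were recomputed, those of the rule left out, 48 were called higher in both diet comparisons, and 29 of them stayed past the fold in both under all 12 alternatives. Among the 29 were *Cxcl2*, *Ccl3*, *Ccl4*, *Csf1*, *Nfkbia*, *Nfkbiz*, *Tnfaip3*, *Cd14*, *Clec4n*, *Ptgs2*, *Nr4a1*, *Ccrl2*, *Hcar2*, *Atf3*, *G0s2*, *Trem1*, *Pim1*, *Per1* and *Plin2*. The 19 that lost a call under at least 1 alternative were *Bcl2a1b*, *Bcl2a1d*, *Cebpb*, *Clec4e*, *Egr1*, *Egr3*, *Fkbp5*, *Hspa1a*, *Il1b*, *Il1rn*, *Mrgpra2a*, *Nlrp3*, *Plaur*, *Ptafr*, *Relb*, *Slc16a3*, *Slfn4*, *Tlr2* and *Tnf*. Of 16 genes called lower in both, *Tsc22d3* was the 1 that stayed past the fold in both under all 12.

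**Figure D4:**
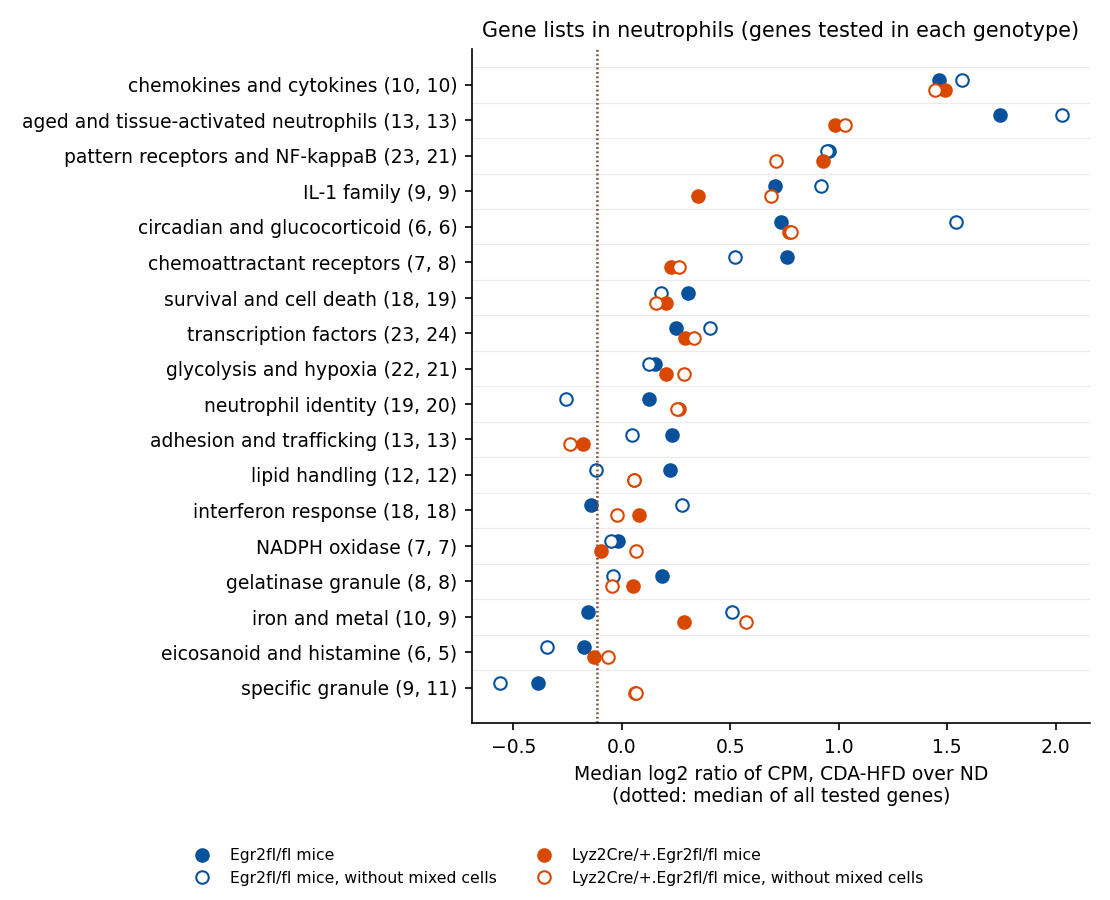
Median log2 CPM ratio of CDA-HFD to ND over the tested genes of 18 gene lists, in the Egr2fl/fl mice (blue) and the Lyz2Cre/+.Egr2fl/fl mice (orange), with all neutrophils (filled) and without the mixed cells (open); dotted lines mark the median of all tested genes and the numbers beside each list are the genes tested in each genotype. The chemokine, aged or tissue-activated, NF-kappaB, IL-1, circadian and glucocorticoid, and chemoattractant receptor lists lie to the right in both genotypes. The NADPH oxidase list lies near the median of all genes. The list of *Egr* and *Nab* genes, with 2 tested genes and medians of 2.18 and 2.45, is not drawn.

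Summed list counts were also taken cell by cell. At 3000 counts per cell the summed chemokine and cytokine genes with *Il1b* had a median of 50.5, 47, 121 and 103 counts a neutrophil. The 10th percentile in the CDA-HFD-fed mice was 48 and 35 counts. Summed specific granule genes had medians of 12, 11, 6 and 8 counts, and the interferon genes 11, 10, 11 and 13. Across the neutrophils of a mouse, the granule and the cytokine sums had Pearson r of 0.153 over 96 cells, 0.119 over 160, -0.173 over 777 and -0.334 over 638, with no common sign. The cells of a mouse share 1 library and 1 fixed depth, so that counts in one sum leave fewer for the other.

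Diet ratios in Ly6Chi monocytes are given beside those of the neutrophils for 6 genes, with no test of the difference. *Tnfaip3* had ratios of 16.9 and 9.37 in neutrophils and 1.05 and 1.18 in monocytes. *Nfkbia* had 5.45 and 3.52 in neutrophils and 1.44 and 1.18 in monocytes. *Csf1* had 5.52 and 3.80 in neutrophils and 0.473 and 1.44 in monocytes. *Cd14* had 5.95 and 5.49 in neutrophils and 8.49 and 9.11 in monocytes. Of the 49 named or listed genes higher in both comparisons in neutrophils, genes of the rule left out but *Mrgpra2a* kept in, 31 had the larger ratio in neutrophils in both genotypes, 6 in monocytes in both and 12 in neutrophils in 1 genotype. These genes were picked for their ratios in neutrophils, so nothing is read from the split. In monocytes *Cxcl2* had ratios of 4.93 and 24.0, and *Ccl4* of 18.2 and 6.81, each above its ratio in neutrophils in 1 genotype and below it in the other.

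Between genotypes fewer genes were called on CDA-HFD, where the neutrophils were most numerous, than on ND. Of 3118 tested genes, 12 were called higher in the Lyz2Cre/+.Egr2fl/fl mouse (0.385%) and 11 lower (0.353%). On ND 129 of 3176 genes were called higher (4.06%) and 124 lower (3.9%), from 96 and 160 cells. The order turned with no filter on the share of cells, at 349 and 159 on CDA-HFD against 154 and 180 on ND, and with the own hashtag at 90% or more of hashtag counts, at 83 and 61 against 53 and 69, so it depends on which genes and cells enter. Of 2765 genes tested on both diets, 0 were called higher on both (0%) and 0 lower on both (0%). The genotype comparisons share no mouse with each other, and each shares its mice with the diet comparisons.

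On CDA-HFD most genes of the pattern receptor and NF-kappaB list were lower in the Lyz2Cre/+.Egr2fl/fl than in the Egr2fl/fl mouse, by less than the fold. Of 23 listed genes tested on CDA-HFD none was called, 21 had a ratio below 1, 19 had an interval wholly below 1 and 0 wholly above. Among all tested genes 21.6% had an interval below 1 and 24.0% above. The list's median log2 ratio was -0.52, and -0.41 without the mixed cells, against 0.02 for all genes. *Nfkbiz* had a ratio of 0.608 (0.570 to 0.648), *Tnfaip3* of 0.632 (0.580 to 0.690) and *Nfkbia* of 0.688. The aged or tissue-activated list had 11 of 13 intervals below 1, with a median log2 ratio of -0.40, and *Nr4a1* had a ratio of 0.598 (0.566 to 0.631). *Cxcl2* had a ratio of 0.627 (0.617 to 0.637). With 1 mouse per genotype these differences cannot be told apart from a difference between 2 mice of any genotype. The values for the CDA-HFD-fed mice are the same counts that enter the diet ratios.

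**Figure D5:**
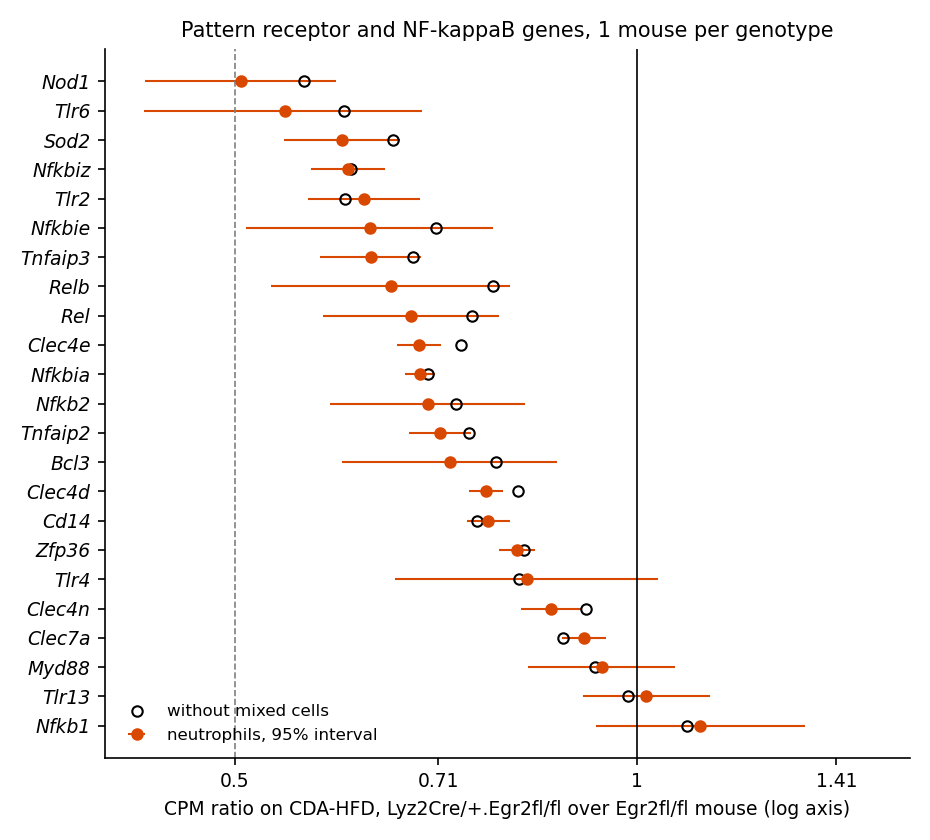
CPM ratio on CDA-HFD of the Lyz2Cre/+.Egr2fl/fl to the Egr2fl/fl mouse (log axis) for the 23 tested genes of the pattern receptor and NF-kappaB list, in all neutrophils (filled, with 95% intervals that cover counting error only) and without the mixed cells (open). The solid line marks equal levels and the dashed line the fold of 0.5; 21 of 23 ratios lie below 1 and none reaches the fold.

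The 5 genes lowest in the Lyz2Cre/+.Egr2fl/fl mouse on CDA-HFD were *Egr2*, *Hspa1a*, *Gbp2*, *Slc25a33* and *Impact*, with ratios of 0.197 to 0.461, and *Slc25a33* was 0.510 without the mixed cells, which ends its call. *Maff* was also called, at 0.474 (0.410 to 0.548). The 5 highest were *Klhl6*, *Ptpn22*, *Crispld2*, *Chil3* and *Apoe*, with ratios of 3.76 (3.06 to 4.64), 3.40 (2.84 to 4.09), 3.30 (2.63 to 4.17), 3.05 (2.81 to 3.31) and 2.49 (2.42 to 2.56). *Apoe* was 1.80 without the mixed cells, which ends its call, and with its absent low values its ratio could lie between 0.855 and 4.16. *Ptpn22*, a phosphatase gene of immune receptor signalling, stood at 34.7, 26.1, 39.4 and 134 CPM and had a count in 5.21%, 6.25%, 6.69% and 21.3% of neutrophils at 3000 counts per cell, and in 8.33%, 8.12%, 9.01% and 25.5% at full depth. *Klhl6* stood at 22.6, 14.2, 29.4 and 110 CPM. The CDA-HFD-fed Lyz2Cre/+.Egr2fl/fl mouse alone was high for both genes.

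A few cells of the same mouse carried specific granule transcripts of less mature neutrophils. *Ngp*, *Camp* and *Ltf* were at 0 in both ND-fed mice, and on CDA-HFD they stood at 159, 44.8 and 83.2 CPM in the Egr2fl/fl mouse, against 2327, 1917 and 573 CPM in the Lyz2Cre/+.Egr2fl/fl mouse. Cells with counts for at least 2 of the 3 genes numbered 0, 0, 2 and 13. By the floor of 3 counts, 0 of 96 cells allows a share of up to 3.13% and 0 of 160 of up to 1.88%, with exact upper bounds of 3.77% and 2.28%. The CDA-HFD-fed mice had 0.257% (0.0312 to 0.927) and 2.04% (1.09 to 3.46). The 2 and 13 cells held 97.6% and 99.2% of the counts of these genes, so the levels rest on 15 cells. On CDA-HFD 8 of 10 tested specific granule genes had intervals above 1 for the Lyz2Cre/+.Egr2fl/fl mouse and 1 below, against 24.0% above and 21.6% below among all tested genes. The list's median log2 ratio was 0.47, and 0.67 without the mixed cells, against 0.02 for all genes. *Chil3*, which encodes the chitinase-like protein Ym1, stood at 39.9, 21.3, 199 and 605 CPM, and *Lcn2* had a ratio of 1.83 (1.77 to 1.90).

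*Lyz2*, the lysozyme gene into which Cre was inserted on 1 allele, stood at 5444, 1506, 3782 and 2948 CPM. Its ratio of the Lyz2Cre/+.Egr2fl/fl to the Egr2fl/fl mouse was 0.277 (0.259 to 0.295) on ND, 0.409 without the mixed cells, and 0.779 (0.760 to 0.799) on CDA-HFD. Both Lyz2Cre/+.Egr2fl/fl mice were below the Egr2fl/fl mouse on the same diet. Its lowest value above 0 was 11 counts, so low values are absent, and with them the ratios could lie between 0.239 and 0.524 on ND and between 0.584 and 1.10 on CDA-HFD. Macrophages express the gene too.

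On ND the genes with the largest genotype ratios rested on few counts. Among the highest in the Lyz2Cre/+.Egr2fl/fl mouse were *Mrtfa*, *Supt5*, *Tcp11l2* and *Acsl1*, with 7 to 12 counts in the Egr2fl/fl mouse and ratios of 4.16 to 5.86, and *Acsl1* was 6.86 without the mixed cells but turned to 0.242 with the own hashtag at 90% or more. The 5 lowest were *Btk*, *Tfec*, *Tcp1*, *Copb1* and *Ly6a*, with ratios of 0.203 to 0.241. *Btk* was 0.117 without the mixed cells, *Ly6a* was 2.41, in the opposite direction, and *Tfec* had too few counts left for a ratio. *Rsad2* was higher in the Lyz2Cre/+.Egr2fl/fl mouse at 3.35 (2.41 to 4.77), and *Osm* and *Bcl2a1b* were lower at 0.403 (0.306 to 0.527) and 0.494 (0.406 to 0.6003), the latter 0.826 without the mixed cells and 0.503 with TMM factors, both of which end its call. *Cebpe*, a factor of granule formation, stood at 20.8, 71.2, 11.3 and 25.9 CPM, with a ratio of 3.42 (1.82 to 6.98) that turned to 0.818 with the own hashtag at 90% or more. Without the mixed cells 70 genes were called higher and 44 lower on ND, in place of 129 and 124.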

How the data were processed

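Liver CD45.2+ CD11b+ innate immune cells of 4 mice were sorted, marked with hashtag oligonucleotides, pooled, captured on a BD Rhapsody system and amplified by TAS-Seq, a 3' single-cell RNA-seq protocol. One table held mRNA and another the hashtags. The deposited values were whole-number counts per gene and per hashtag in each barcode, and the authors had already set the barcode limit, corrected errors in counts and named each barcode for a mouse or as a doublet. Whether reads or molecules were counted is not given in the sources used here. The submitters' processing notes name GRCm38, Seurat 4.1.1 and R 4.2.1. Low values of 22 genes were absent from the mRNA table. The 7 other hashtag columns were not used, and the cell loading note, which misprints 1 hashtag, was read with the hashtag key. The 1392 barcodes named doublets were left out of all comparisons.

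Counts were summed over the neutrophils of a mouse and given as CPM with exact Poisson intervals, ratios with exact binomial intervals, shares with Clopper-Pearson intervals and differences of shares with Newcombe intervals, all at 95%. A ratio against a mouse at 0 used a floor of 3 counts. Intervals and floors cover counting error only, and neither reads of the same molecule nor counts of the same cell are independent. Genes were tested and called as stated in the report, with no test between mice. Shares of cells with a count for a single gene were taken after thinning each cell to 3000 counts, except where full depth is stated. The precision is set by 96 neutrophils in the smallest group. The members and the gene lists were chosen with earlier results of these data known.

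Genes of the rule were left out of the counts and medians of the other lists. Named genes were the members of the lists, the 10 genes in each direction with the largest smaller ratio among those past the fold in both diet or both genotype comparisons whose share of cells moved the same way, the 5 of largest ratio in each direction of a single comparison, and the 15 genes highest in neutrophils over other cells, with 1 CPM added to both and a count in at least 20% of neutrophils. Listed genes not in the table (*Egr4* and a few markers of other cell types among them) were not analysed here, and a few genes that the rule names are not reported here. The Ly6Chi monocytes, Kupffer cells and lymphocytes set beside the neutrophils were chosen by counts for at least 3 of their markers.

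The code for the calls was run on simulated counts drawn from the real means, with Poisson error only and no spread between cells or mice. Of 200 genes given a 4-fold change, 171, 187, 168 and 200 met the limits for testing in the comparisons that follow. Called right were 85.5% of the 200 in the diet comparison of the Egr2fl/fl mice (3080 genes tested) and 93.5% in that of the Lyz2Cre/+.Egr2fl/fl mice (3554). In the genotype comparisons they were 84% on ND (3052) and 100% on CDA-HFD (3781). The shares thus follow from the limits for testing. They do not show how intervals or calls behave with spread between cells or mice. Python 3.11.15 with numpy 2.4.6, scipy 1.17.1, pandas 2.3.3 and matplotlib 3.10.9 was used, and edgeR 4.0.16 in R 4.3.3 gave TMM factors. The alternatives varied the markers required, the limits on mitochondrial counts, hashtags, totals and low values, the mixed cells, the depth, the scaling and the averaging.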

Additional observations from a re-analysis of the deposited data

Results flagged for a closer look

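The share of neutrophils differed between genotypes in opposite directions on the 2 diets. It was 4.49 percentage points higher in the Lyz2Cre/+.Egr2fl/fl than in the Egr2fl/fl mouse on ND (2.63 to 6.38) and -2.89 points on CDA-HFD (-4.05 to -1.73). With 1 mouse in each group the difference between these effects was not tested. The share of neutrophils below 4000 counts was 58.3% in the ND-fed Egr2fl/fl mouse and 40.4% to 45.6% in the others. Among cells with at least 4000 counts the differences were 3.50 points (2.05 to 5.02) and -1.78 points (-2.78 to -0.781), still opposite in sign, with that on CDA-HFD smaller.

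Among the 1392 barcodes that the authors named doublets, which entered no comparison, 287 met the neutrophil rule, or 20.6% (18.5 to 22.8). A barcode of 2 cells has 2 chances to meet the rule, and pairs drawn from cells of which 10.9% are neutrophils would hold 1 or more in 20.5%. That figure leaves out the unequal loading of the mice and the need for 2 different hashtags. How these barcodes arose was not tested. The 287 barcodes had a median of 14445 counts.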

How the results depend on the processing

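No paired analysis was possible because each group had 1 mouse and the labels give no replicate numbers, and no replicate could be left out. Depth limits the diet and ND genotype ratios, since the ND-fed mice gave 96 and 160 neutrophils, and genes with few ND counts have wide intervals. Of the values for shares and counts of genes under the alternatives, 157 stayed within the range set for them and 47 moved. Unless a setting itself leaves fewer cells or genes, the cause was not tested. The setting with at least 4000 counts was chosen after seeing the data. The genes higher in both diet comparisons numbered 106, and 45 to 162 under the alternatives.

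With cells whose own hashtag held at least 90% of hashtag counts, which leaves 21, 45, 297 and 233 neutrophils, the share difference was 5.31 points for diet in the Egr2fl/fl mice and 2.53 for genotype on ND, and the higher and lower genes numbered 86 and 86 for diet in the Egr2fl/fl mice, 53 and 69 for genotype on ND, 83 and 61 for genotype on CDA-HFD, 45 and 17 for both diet and 2 and 2 for both genotype comparisons. With at least 4000 counts, which leaves 40, 87, 450 and 380, the share difference for diet in the Egr2fl/fl mice was 5.96 points, 248 genes were lower for diet in the Lyz2Cre/+.Egr2fl/fl mice, 34 and 26 were called for genotype on CDA-HFD, 57 were lower in both diet and 1 and 1 were called in both genotype comparisons. Without the mixed cells 70 and 44 were called for genotype on ND. Thinned to 3000 counts, 127 were lower for diet in the Egr2fl/fl mice, and 37 and 34 were called for genotype on ND.

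With TMM factors 422 and 105 were called for diet in the Egr2fl/fl mice, 286 and 68 in the Lyz2Cre/+.Egr2fl/fl mice, and 162 and 11 in both. With no filter on the share of cells 297 were lower for diet in the Lyz2Cre/+.Egr2fl/fl mice, 349 and 159 were called for genotype on CDA-HFD, 82 were lower in both diet, and 8 and 4 were called in both genotype comparisons. With an expected count of at least 50 the numbers were 140 and 83, 120 and 67 for diet in the 2 genotypes, 21 and 36 for genotype on ND, and 19 lower in both diet comparisons. With 4 markers required 21 were higher for genotype on CDA-HFD. In both genotype comparisons 1 gene was higher with 2 markers required, 1 was higher by the mean over cells, and 1 was lower without a mitochondrial limit.

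Ratios were recomputed for 119 genes, and 23 values turned direction. Of 187 called ratios of genes outside the rule, 37 were no longer past the fold after thinning, 35 with the hashtag limit and 35 without the mixed cells (186 with a ratio in these last settings), 17 with at least 4000 counts, 16 by the mean over cells, 14 with 4 markers required and 0 to 8 under the other 6 alternatives. With the hashtag limit, *Acsl1* and *Cebpe* for genotype on ND were 0.242 and 0.818, and for diet in the Egr2fl/fl mice *Hpgd* was 10.2, *Apoe* 78.4, *Cd81* 1.70, *Elof1* 4.45 and *Serpinb6a* 1.19. Without the mixed cells *Hpgd* was 1.01 and 4.003 for diet in the Egr2fl/fl and Lyz2Cre/+.Egr2fl/fl mice, *Apoe* 2.67, *Cd81* 1.43 and *Tfec* 1.03 in the former, *Apoc1* 1.27 and *Sdc3* 1.51 in the latter, and *Ly6a* 2.41 for genotype on ND. Thinned, *Hpgd* was 1.69, *Sdc3* 2.07 and *Cd81* 1.10 for diet in the Lyz2Cre/+.Egr2fl/fl mice, and *Apoe* 1.195, *Apoc1* 1.51, *Cd81* 2.73 and *Serpinb6a* 3.80 in the Egr2fl/fl mice. With 4 markers required *Mctp2* was 1.34 in the Egr2fl/fl mice.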
